A study of Homo sapiens with 21 samples.

Results

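The genes described here take up, store, export and sense iron. They are 10 genes, TFRC, STEAP3, SLC11A2, SLC25A37, FTH1, FTL, SLC40A1, HMOX1, ACO1 and IREB2, chosen by symbol from the 28008 genes of both count tables and not by their values. All 10 had a row in both tables and all are described. The study measured messenger RNA in 21 libraries of human leukaemia cell lines. The labels give OCI-AML3, a line established from acute myeloid leukaemia, for 18 of them and K562, an erythroleukaemia line derived from chronic myeloid leukaemia, for the other 3. The study's question was how OCI-AML3 cells that resist StAMP differ from sensitive ones, with K562 beside them. The labels do not spell StAMP out.

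There were 7 groups of 3 libraries each, in 2 sequencing batches. In batch 1, the group labelled resistant 1 (genotype given as Res, treatment as StAMP, first biological replicate) stood beside OCI-AML3 vehicle (genotype WT, treatment DMSO), and K562 parental (genotype WT, no treatment given) beside OCI-AML3 parental (genotype WT, no treatment given). In batch 2, the groups labelled resistant 2 (second biological replicate) and resistant 1 stood beside OCI-AML3 vehicle, with the same genotype and treatment labels. The sources used here do not say how the resistant cells were selected or whether each group came from 1 culture. P-values therefore measure the spread between these libraries, which may be technical.

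Iron enters most cells bound to transferrin through the transferrin receptor, is freed and reduced in endosomes, and is used, stored in ferritin or exported by ferroportin. Cells balance these steps largely after transcription. When iron is scarce, the iron regulatory proteins bind stem-loops called iron-responsive elements, which blocks translation of messages that carry one in the 5′ untranslated region, such as those of ferritin and ferroportin, and protects the transferrin receptor message, which carries several in its 3′ untranslated region. Precursors of red cells take up iron at a high rate to make heme.

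The stem-loops are shown because iron regulatory proteins act on messages through them, and 4 of the 10 genes held a match. The canonical transcripts (GENCODE v44, hg38) were searched on the message strand for a C, 5 bases, the loop CAGTGN and 5 bases that pair with the first 5, with G-U pairs allowed. Each sequence is a window of 30 bases, read 5′ to 3′ on the strand of the gene, with the 6 loop bases in capitals. FTH1, FTL and SLC40A1 each had 1 match in the 5′ untranslated region, and TFRC had 4 in the 3′ untranslated region.
FTH1 5′ element, chr11:61967573-61967602, minus strand: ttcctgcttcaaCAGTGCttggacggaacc
FTL 5′ element, chr19:48965335-48965364, plus strand: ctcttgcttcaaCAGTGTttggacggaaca
SLC40A1 5′ element, chr2:189580660-189580689, minus strand: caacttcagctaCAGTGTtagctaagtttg
TFRC 3′ element 1, chr3:196050978-196051007, minus strand: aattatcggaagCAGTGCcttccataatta
TFRC 3′ element 2, chr3:196050574-196050603, minus strand: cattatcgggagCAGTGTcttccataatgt
TFRC 3′ element 3, chr3:196050509-196050538, minus strand: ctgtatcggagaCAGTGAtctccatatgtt
TFRC 3′ element 4, chr3:196050462-196050491, minus strand: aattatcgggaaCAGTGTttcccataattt

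Among all canonical coding transcripts, 19 of 19441 with a 5′ untranslated region (0.0977%) and 122 of 19550 with a 3′ untranslated region (0.624%) held a match. In FTH1 the loop began at base 45 of a 5′ region of 209 bases, in FTL at base 39 of 199, and in SLC40A1 at base 110 of 326. In TFRC the 4 loops began at bases 947, 1351, 1416 and 1463 of a 3′ region of 2658 bases. The genes lie at chr3:196012511-196082153 (TFRC, 19 exons, minus strand), chr11:61959718-61967634 (FTH1, 4 exons, minus strand), chr19:48965309-48966879 (FTL, 4 exons, plus strand) and chr2:189560590-189583758 (SLC40A1, 8 exons, minus strand). No match by these letters was present in the untranslated regions of the canonical transcripts of the other 6 genes.

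**Figure D1:**
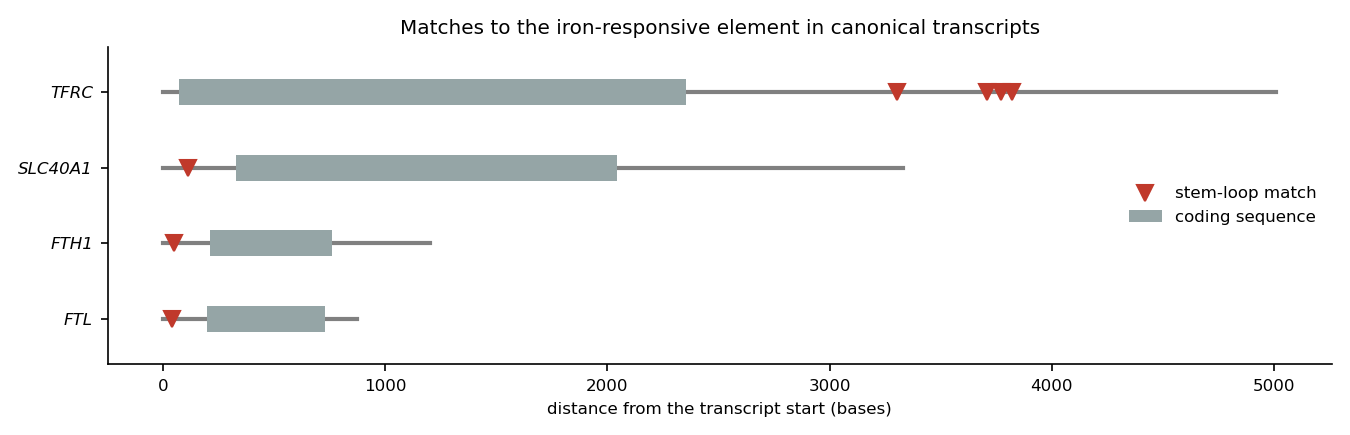
Positions of the stem-loop matches (triangles) in the canonical transcripts of TFRC, SLC40A1, FTH1 and FTL, with the coding sequence as a box and the x axis in bases from the transcript start. TFRC has 4 matches after its coding sequence, and each of the other genes has 1 before it.

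Library depth, in mega counts (M), was 14.1 to 21.1 M in batch 1 and 30.7 to 51.3 M in batch 2. The libraries labelled resistant went against their cell line label, and every comparison with vehicle below has to be read with this. Over 10781 genes averaging at least 5 CPM (counts relative to the library total in mega counts), Pearson correlations of log2(CPM + 1) between labelled resistant 1 and K562 libraries of batch 1 were 0.978 to 0.980, and those with vehicle libraries of that batch were 0.506 to 0.510. In batch 2, labelled resistant 2 libraries correlated at 0.900 to 0.930 and labelled resistant 1 libraries at 0.909 to 0.940 with K562, and all of them at 0.555 to 0.581 with vehicle. The marker sums here and in the next paragraph use CPM relative to the TMM-scaled library size, which is explained below. The summed level of 12 red cell markers was 4702 to 5023 CPM in labelled resistant 1 and 12.8 to 14.0 CPM in vehicle libraries of batch 1, and 4649 to 4777 CPM in K562 and 10.3 to 12.7 CPM in OCI-AML3 parental libraries. The sum was 946 to 1449 CPM in labelled resistant 2, 1586 to 1706 CPM in labelled resistant 1 and 5.03 to 7.21 CPM in vehicle libraries of batch 2. All 12 red cell markers were detected in each labelled resistant group, while 6 of them (HBG1, HBZ, RHAG, ALAS2, HEMGN and AHSP) were at 0 in vehicle of batch 1 and 6 (HBG2 in place of HBG1) in vehicle of batch 2.

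The summed level of 12 myeloid markers was 87.5 to 89.9 CPM in labelled resistant 1 and 2443 to 2476 CPM in vehicle libraries of batch 1, and 43.7 to 46.6 CPM in K562 and 2716 to 2720 CPM in OCI-AML3 parental libraries. Batch 2 held 133 to 145 CPM in labelled resistant 2, 176 to 208 CPM in labelled resistant 1 and 1963 to 2058 CPM in vehicle. HOXA9 and HOXA10 were at 0 in all groups labelled resistant, as were IRF8 and ELANE in those of batch 2, and all 12 myeloid markers were detected in vehicle. Of the 12, 11 were called lower in each comparison with vehicle and 1, ITGAM, an integrin of myeloid cells, was called higher in each. Its log2 fold change was 1.16 ± 0.18 in labelled resistant 1 of batch 1, and 0.84 ± 0.24 in labelled resistant 2 and 2.47 ± 0.24 in labelled resistant 1 of batch 2, while in K562 against parental it was -0.24 ± 0.29 and not called. A response to StAMP and a difference between cell lines therefore cannot be told apart in any comparison of labelled resistant with vehicle libraries. K562 against OCI-AML3 parental uses none of these libraries, and its values are given beside each result.

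Levels below are CPM relative to the TMM-scaled library size of the same batch (TMM, the trimmed mean of M values, corrects for differing RNA composition). Fold changes are log2 values with their standard error (SE) from edgeR's quasi-likelihood test, and a gene was called when its Benjamini-Hochberg adjusted p over all genes tested was under 0.05. The comparison of batch 1 gave 9 of the 10 iron genes called, 8 higher and 1 lower in labelled resistant 1. Over all 14505 genes tested there, 44% were called higher and 42.1% lower, so the 9 calls are also read against a background in which most genes were called. The median log2 fold change of the 10 genes was 0.76, against 0.02 over all genes tested.

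In batch 2, labelled resistant 1 gave 5 higher and 2 lower calls among the 9 iron genes tested, against a background of 39.9% higher and 35.8% lower among 15218 genes. Labelled resistant 2 gave 5 higher and 1 lower, against 40.2% higher and 35.9% lower. Both comparisons share the vehicle libraries of batch 2. The median log2 fold change of the 9 genes was 0.63 in labelled resistant 1 and 0.37 in labelled resistant 2, against 0.07 over all genes tested in each. The 5 genes higher in all 3 comparisons with vehicle were TFRC, SLC11A2, FTH1, FTL and SLC40A1, and no iron gene was lower in all 3. Of the 14179 genes tested in all 3, 31% were higher in each and 29.8% lower in each. Of the calls over all genes, 52.9% were higher in labelled resistant 2 with TMM scaling and 63.5% with scaling to total counts. That scaling, added after seeing the data, raised the median log2 fold change of all genes by 0.19 for labelled resistant 1 and by 0.28 for labelled resistant 2 in batch 2.

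K562 against OCI-AML3 parental also gave 9 of 10 iron genes called, 8 higher and 1 lower, against a background of 42.6% higher and 42.5% lower among 13883 genes. The median log2 fold change of the 10 genes was 0.86 there, against 0.00 over all genes tested. Vehicle against OCI-AML3 parental gave 3 higher and 3 lower, against 18.7% higher and 18.3% lower. In these bulk samples fewer cells of a type and less RNA per cell cannot be told apart.

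**Figure D2:**
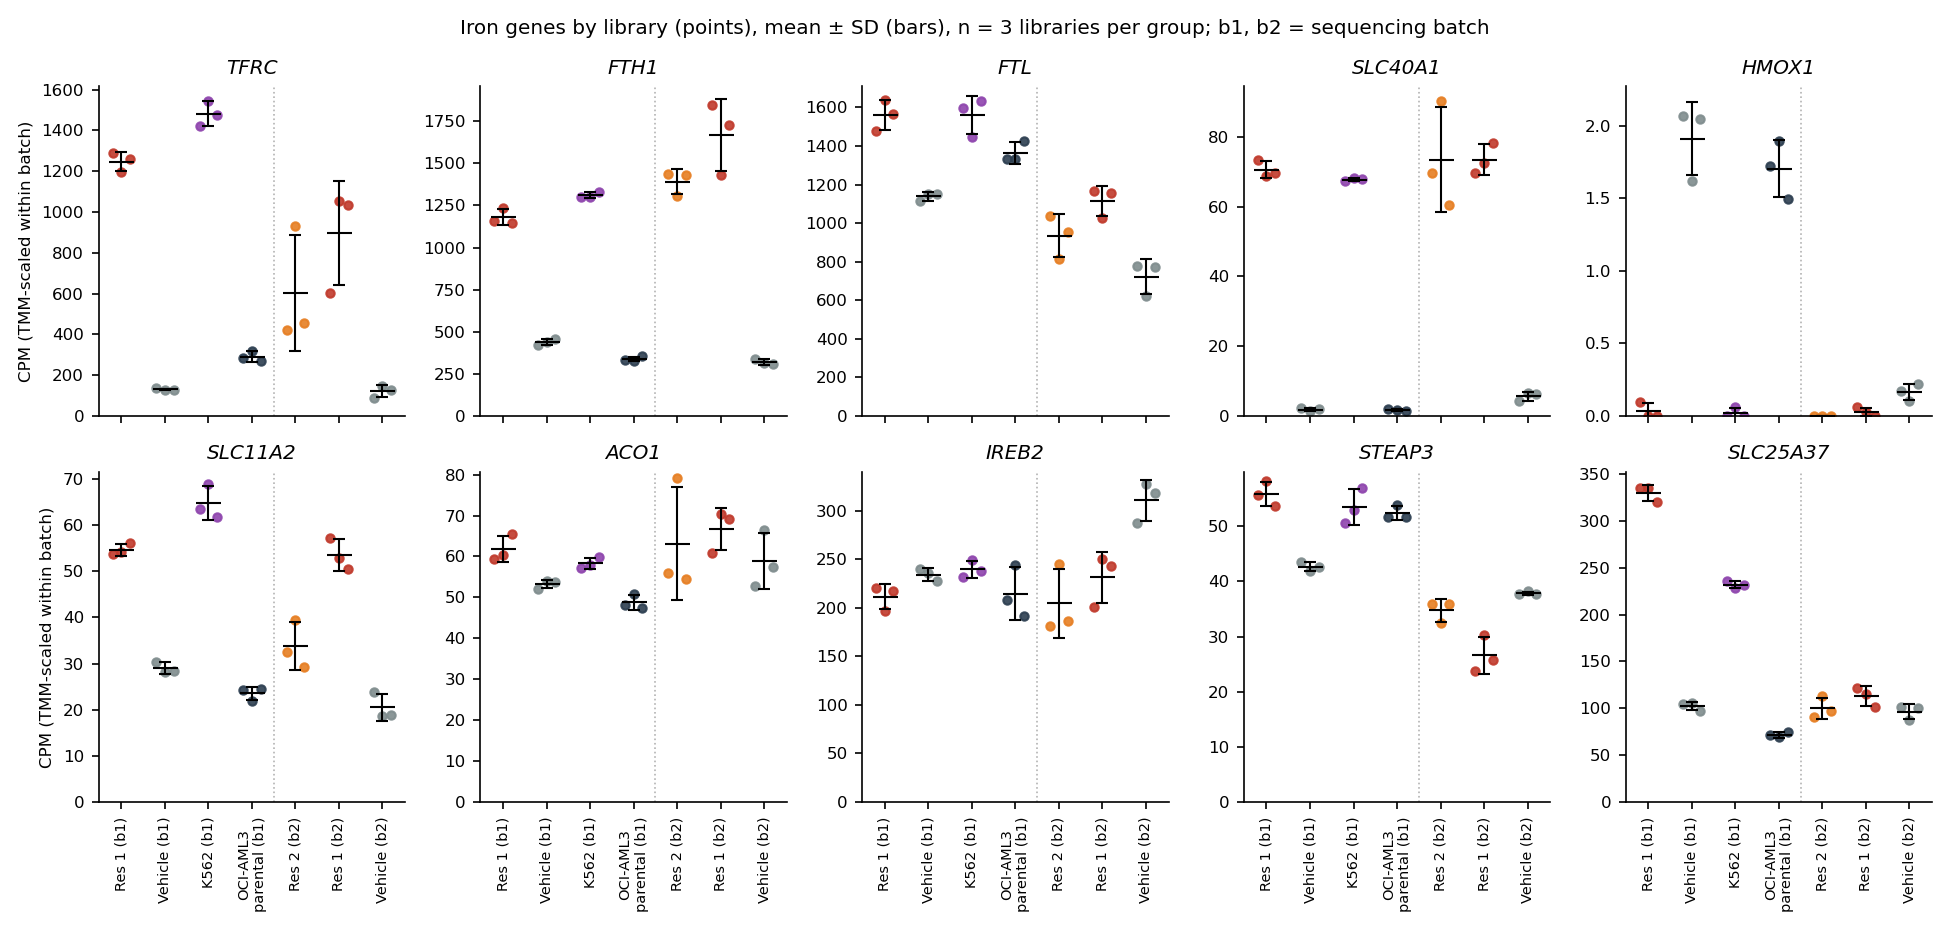
Level of each of the 10 iron genes in every library (points, CPM with TMM scaling within the batch; y axes start at 0 and differ between genes), with the mean and SD of the 3 libraries of each group. Res 1 and Res 2 are the groups labelled resistant, and the dotted line separates batch 1 from batch 2. TFRC, FTH1 and SLC40A1 sit high in the labelled resistant and K562 libraries and low in the vehicle and parental ones.

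Uptake was led by TFRC, the transferrin receptor, which carries transferrin-bound iron into the cell. In batch 1, TFRC had 1290, 1194 and 1259 CPM in labelled resistant 1, against 135, 128 and 128 CPM in vehicle libraries. K562 libraries had 1423, 1545 and 1474 CPM, and OCI-AML3 parental libraries 282, 320 and 267 CPM. The groups did not overlap, and K562 was the highest and vehicle the lowest of the 4.

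TFRC was 10.1-fold higher in labelled resistant 1 than in vehicle of batch 1 (log2 fold change 3.34 ± 0.06 SE, adjusted p = 1.47e-26). In K562 it was 5.12-fold higher than in OCI-AML3 parental (2.36 ± 0.06, adjusted p = 1.26e-17). Vehicle itself fell below parental, by 1.18 ± 0.06 on the log2 scale (adjusted p = 4.38e-15). Labelled resistant 1 also stayed slightly below K562 (-0.23 ± 0.04, adjusted p = 4.78e-05).

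In batch 2, TFRC had 421, 932 and 455 CPM in labelled resistant 2, 602, 1056 and 1033 CPM in labelled resistant 1 and 89.3, 146 and 128 CPM in vehicle libraries. Both labelled resistant groups lay above vehicle without overlap and overlapped each other. In each of the 3 groups the library numbered 1 was the lowest and the one numbered 2 the highest. TFRC was higher than in vehicle by 2.31 ± 0.35 on the log2 scale in labelled resistant 2 (adjusted p = 1.31e-04) and by 2.89 ± 0.35 in labelled resistant 1 (adjusted p = 2.98e-05). The spread among libraries of batch 2 was wide: the SD was 285 CPM around a mean of 603 CPM in labelled resistant 2.

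STEAP3 encodes the endosomal reductase that turns ferric into ferrous iron after transferrin uptake in red cell precursors. In batch 1 it had 55.7, 58.1 and 53.7 CPM in labelled resistant 1, against 43.6, 42.0 and 42.5 CPM in vehicle, and was called higher (0.46 ± 0.06, adjusted p = 5.49e-08). In batch 2 it had 36.0, 32.4 and 35.9 CPM in labelled resistant 2, 23.8, 30.3 and 25.8 CPM in labelled resistant 1 and 37.7, 38.2 and 37.7 CPM in vehicle. The direction was thus opposite for labelled resistant 1 in batch 2, where STEAP3 fell by 0.51 ± 0.12 on the log2 scale (adjusted p = 0.00135).

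STEAP3 in labelled resistant 2 differed from vehicle by -0.12 ± 0.12 and was not called (adjusted p = 0.351), and with total-count scaling the value was 0.16. K562 had 50.6, 52.9 and 56.9 CPM and OCI-AML3 parental 51.6, 53.9 and 51.7 CPM, which overlapped (0.03 ± 0.06, adjusted p = 0.632). Vehicle fell below parental by 0.32 ± 0.06 (adjusted p = 1.13e-04).

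SLC11A2, also known as DMT1, moves ferrous iron across the endosomal membrane into the cytosol. In batch 1 it had 53.7, 54.2 and 56.2 CPM in labelled resistant 1, against 30.4, 28.1 and 28.4 CPM in vehicle libraries. It was 1.98-fold higher (0.99 ± 0.07, adjusted p = 1.04e-13). In K562 it had 63.6, 69.0 and 61.8 CPM, against 24.2, 21.9 and 24.4 CPM in OCI-AML3 parental libraries, a 2.76-fold difference (1.46 ± 0.07, adjusted p = 5.22e-14). K562 was again the highest group of the batch, with no overlap.

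In batch 2, SLC11A2 had 32.5, 39.4 and 29.3 CPM in labelled resistant 2, 57.2, 52.9 and 50.5 CPM in labelled resistant 1 and 23.9, 18.7 and 18.8 CPM in vehicle libraries. The 3 groups did not overlap. The log2 fold change against vehicle was 0.72 ± 0.14 in labelled resistant 2 (adjusted p = 3.06e-04) and 1.38 ± 0.14 in labelled resistant 1 (adjusted p = 4.82e-07).

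SLC25A37, or mitoferrin-1, brings iron into mitochondria of developing red cells for heme synthesis. In batch 1 it had 335, 336 and 320 CPM in labelled resistant 1, against 104, 105 and 97.2 CPM in vehicle (1.77 ± 0.05, adjusted p = 5.67e-22). K562 had 236, 228 and 232 CPM, against 71.4, 68.7 and 74.7 CPM in OCI-AML3 parental (1.70 ± 0.05, adjusted p = 2.10e-17). Labelled resistant 1 exceeded K562 here, by 0.53 ± 0.04 (adjusted p = 4.41e-10).

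The picture differed in batch 2, where SLC25A37 had 90.8, 113 and 96.8 CPM in labelled resistant 2, 122, 116 and 102 CPM in labelled resistant 1 and 101, 87.3 and 100 CPM in vehicle. It was higher in labelled resistant 1 than in the same-numbered vehicle library in each pair, though by little for library 3 (102 against 100 CPM). The difference from vehicle was 0.06 ± 0.12 in labelled resistant 2 (adjusted p = 0.668) and 0.23 ± 0.12 in labelled resistant 1 (adjusted p = 0.0831), neither of them called. A fit with the replicate number as a block called neither. With total-count scaling the differences were 0.34 (adjusted p = 0.0175) and 0.42 (adjusted p = 0.00478), and both were called. Labelled resistant 1 was also called without its library 3 (0.32, adjusted p = 0.0412) or without library 2 of labelled resistant 2 in the fit (0.23, adjusted p = 0.0477).

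**Figure D3:**
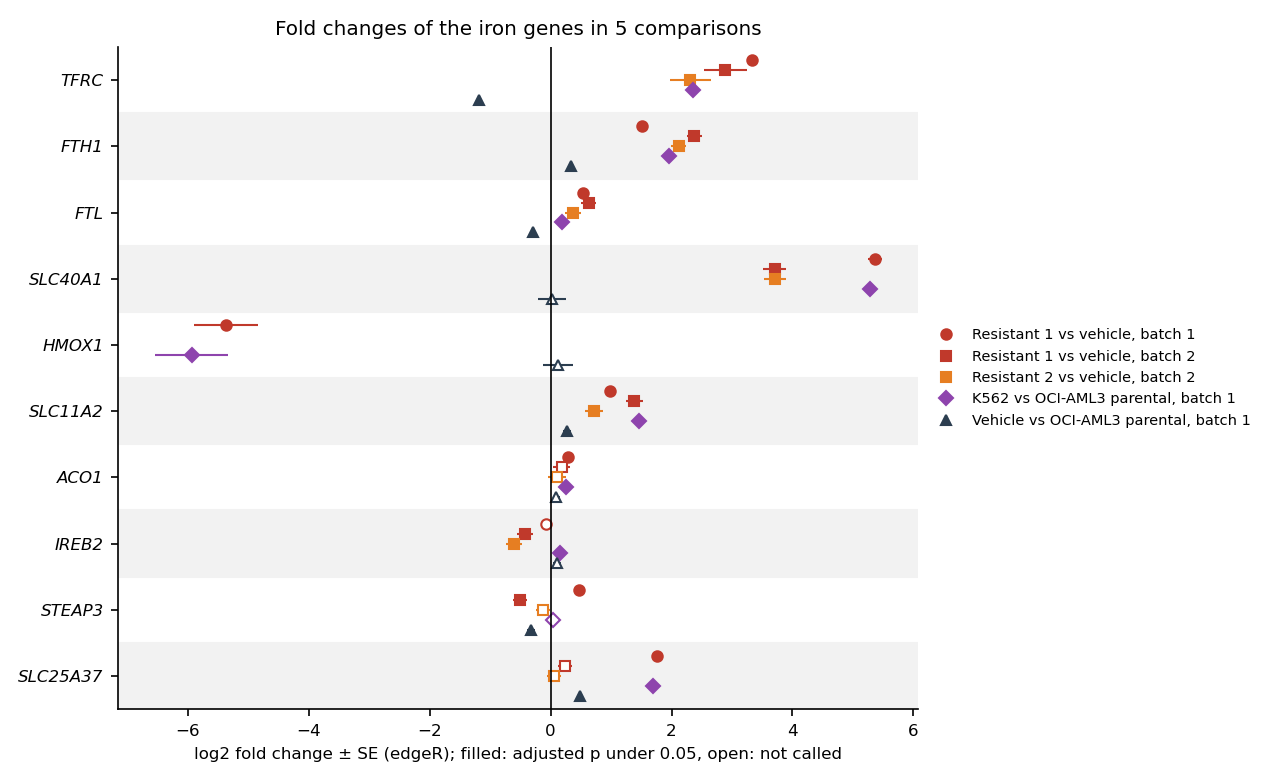
Log2 fold changes with SE of the 10 iron genes in 5 comparisons (filled symbols, adjusted p under 0.05 in edgeR's quasi-likelihood test; open symbols, not called). SLC40A1 and TFRC lie farthest to the right in the comparisons of labelled resistant with vehicle. HMOX1 lies farthest to the left in batch 1 and was not tested in batch 2. K562 against OCI-AML3 parental has the sign of labelled resistant 1 of batch 1 for all genes shown except IREB2. The sizes differ for several genes, TFRC and STEAP3 among them.

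Storage is the task of ferritin, a shell built of the heavy chain FTH1, which oxidizes iron, and the light chain FTL, which helps to form the mineral core. In batch 1, FTH1 had 1159, 1234 and 1145 CPM in labelled resistant 1, against 419, 440 and 454 CPM in vehicle. It was 2.84-fold higher (1.504 ± 0.05, adjusted p = 2.72e-21). K562 had 1303, 1298 and 1331 CPM, against 333, 327 and 354 CPM in OCI-AML3 parental, a 3.88-fold difference (1.96 ± 0.05, adjusted p = 1.24e-19). FTH1 was thus high in the same groups as TFRC.

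In batch 2, FTH1 had 1437, 1307 and 1431 CPM in labelled resistant 2, 1844, 1432 and 1728 CPM in labelled resistant 1 and 338, 317 and 308 CPM in vehicle libraries. The labelled resistant groups overlapped each other and lay far above vehicle. The log2 fold change was 2.12 ± 0.12 in labelled resistant 2 (adjusted p = 5.97e-10) and 2.38 ± 0.12 in labelled resistant 1 (adjusted p = 1.77e-10).

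FTL moved less. In batch 1 it had 1480, 1638 and 1565 CPM in labelled resistant 1, against 1113, 1151 and 1151 CPM in vehicle (0.53 ± 0.04, adjusted p = 7.10e-12). K562 had 1598, 1447 and 1635 CPM, against 1331, 1333 and 1427 CPM in OCI-AML3 parental (0.20 ± 0.05, adjusted p = 9.50e-04). Groups did not overlap in either comparison, but the gap between the highest parental and the lowest K562 library was small.

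In batch 2, FTL had 1037, 814 and 955 CPM in labelled resistant 2, 1165, 1026 and 1157 CPM in labelled resistant 1 and 776, 620 and 772 CPM in vehicle. The log2 fold change was 0.37 ± 0.13 in labelled resistant 2 (adjusted p = 0.0154) and 0.63 ± 0.13 in labelled resistant 1 (adjusted p = 4.15e-04). The call in labelled resistant 2 was lost without its library 1 (0.29, adjusted p = 0.0770) or without vehicle library 2 (0.28, adjusted p = 0.0614).

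The balance of the chain messages differed between the groups. The ratio of FTL to FTH1 counts was 1.28 to 1.37 in labelled resistant 1 and 2.54 to 2.66 in vehicle of batch 1, and 1.12 to 1.23 in K562 and 3.996 to 4.08 in OCI-AML3 parental. Libraries of batch 2 had 0.623 to 0.722 in labelled resistant 2, 0.631 to 0.716 in labelled resistant 1 and 1.96 to 2.51 in vehicle. The ranges of labelled resistant and vehicle libraries did not overlap in either batch, nor did those of K562 and parental.

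Per kilobase of the canonical transcript, FTL averaged 1792 ± 90.8 and FTH1 980 ± 39.9 CPM per kilobase in labelled resistant 1 of batch 1 (SD, n = 3 libraries). In vehicle of that batch FTL averaged 1307 ± 25.5 and FTH1 364 ± 14.8 CPM per kilobase. In labelled resistant 1 of batch 2 FTL averaged 1281 ± 89.5 and FTH1 1386 ± 177 CPM per kilobase. In vehicle of batch 2 FTL averaged 830 ± 102 and FTH1 267 ± 13.2. Both chains were measured in the same libraries, so these SDs cannot show whether their levels differed. Levels across the batches were scaled separately. FTH1 has processed copies elsewhere in the genome: the copy FTH1P3 held 0.0503 to 0.411% of the FTH1 count, and the sources used here do not say how reads that fit several copies were counted. BEST1 overlaps FTH1 on the opposite strand and had at most 560 counts in a library, and they do not say whether counting used strand.

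TFRC and FTH1 are under opposite post-transcriptional control by iron, and their messages were both high in the K562 and labelled resistant libraries. The ratio of TFRC to FTH1 counts was 0.968 to 1.11 in labelled resistant 1 and 0.281 to 0.322 in vehicle of batch 1, with no overlap. It was 1.09 to 1.19 in K562 and 0.754 to 0.979 in OCI-AML3 parental. Batch 2 gave 0.293 to 0.713 in labelled resistant 2, 0.326 to 0.737 in labelled resistant 1 and 0.264 to 0.462 in vehicle, and all 3 ranges overlapped. Same-numbered libraries of labelled resistant 1 and vehicle deviated together in batch 2, and within these pairs the ratio was higher in labelled resistant 1 each time (0.326 against 0.264, 0.737 against 0.462 and 0.598 against 0.417). Labelled resistant 2 and resistant 1 were paired in the same way, and the ratio was lower in labelled resistant 2 in each pair (0.293 against 0.326, 0.713 against 0.737 and 0.318 against 0.598). Labelled resistant 2 and vehicle were not taken as pairs, and their same-numbered ratios went both ways (0.293 against 0.264, 0.713 against 0.462 and 0.318 against 0.417).

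**Figure D4:**
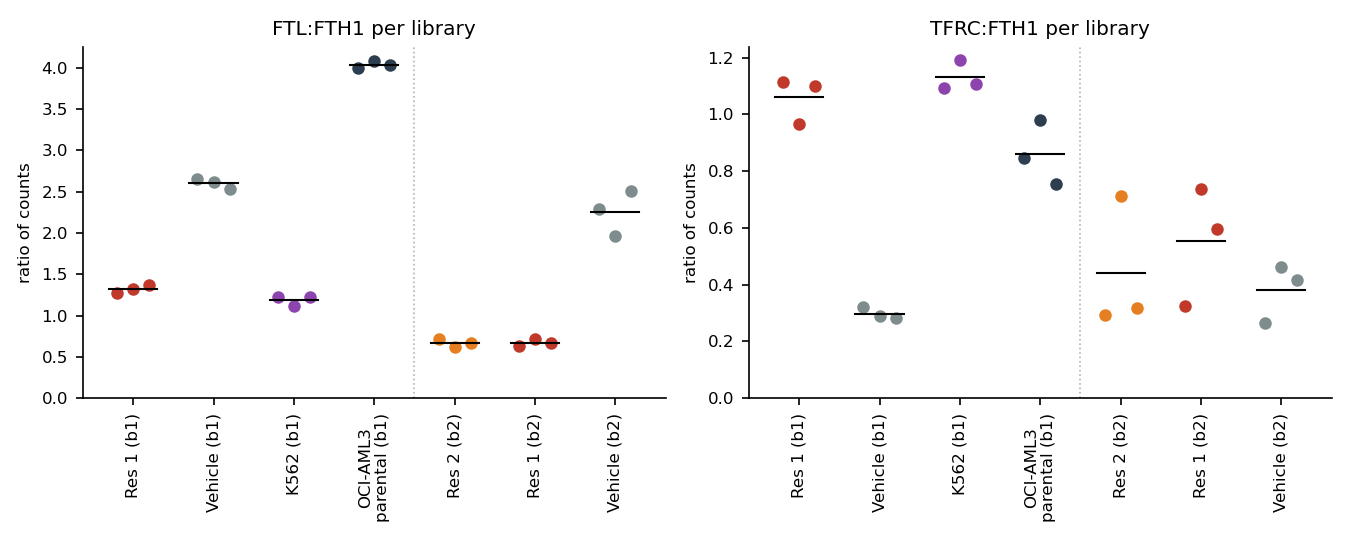
Ratio of FTL to FTH1 counts (left) and of TFRC to FTH1 counts (right) in every library (points), with the mean of 3 libraries as a line; the dotted line separates the batches. The FTL to FTH1 ratio is lower in the labelled resistant than in the vehicle libraries of both batches, while the ranges of the TFRC to FTH1 ratio overlap between the groups of batch 2.

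Export was represented by SLC40A1, which encodes ferroportin, the iron exporter of vertebrate cells. It had the largest positive log2 fold change of the 10 genes in each comparison of labelled resistant with vehicle and in K562 against parental. In batch 1 it had 73.3, 68.8 and 69.6 CPM in labelled resistant 1, against 2.24, 1.28 and 1.98 CPM in vehicle libraries. The 95 counts over the 3 vehicle libraries show a low but detected level, and the gene was 41.2-fold higher in labelled resistant 1 (5.36 ± 0.12, adjusted p = 1.35e-24).

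K562 libraries had 67.2, 68.3 and 67.8 CPM of SLC40A1, against 2.08, 1.76 and 1.29 CPM in OCI-AML3 parental libraries (5.29 ± 0.11, adjusted p = 1.73e-20). Labelled resistant 1 and K562 differed by 0.08 ± 0.05 (adjusted p = 0.209), and by 0.14 with total-count scaling (adjusted p = 0.0219). The levels in batch 2 were 69.8, 90.2 and 60.6 CPM in labelled resistant 2, 69.5, 72.4 and 78.2 CPM in labelled resistant 1 and 4.18, 6.55 and 6.17 CPM in vehicle. The log2 fold change against vehicle was 3.71 ± 0.19 in both (adjusted p = 1.58e-10 in each). Labelled resistant 1 averaged 70.6 CPM in batch 1 and 73.4 CPM in batch 2, while vehicle averaged 1.83 CPM in batch 1 and 5.63 CPM in batch 2, each batch on its own scale.

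HMOX1, heme oxygenase 1, is the inducible enzyme that breaks heme down and frees its iron. In batch 1 it was the 1 iron gene called lower. It had 2 counts in the 3 labelled resistant 1 libraries together, against 100 counts in the 3 vehicle libraries of that batch, which makes it 51.6-fold lower (95% exact interval 13.9 to 432, covering counting error only). K562 had 1 count, against 80 in OCI-AML3 parental, 85.0-fold lower (14.8 to 3397). Both differences were called lower (adjusted p = 4.17e-10 in labelled resistant 1 and 1.16e-08 in K562).

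HMOX1 was low everywhere: vehicle averaged 1.91 ± 0.25 CPM in batch 1 and 0.165 ± 0.056 CPM in batch 2 (SD, n = 3 libraries). The gene did not pass the low-count filter in batch 2 and was not tested there. Labelled resistant 2 held 0 counts against 19 in vehicle, at least 7.55-fold lower when the 0 is set to a floor of 3 counts over the group, and labelled resistant 1 held 4 against the same 19, which is 4.96-fold lower (95% exact interval 1.65 to 20.1).

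Sensing rests on ACO1 and IREB2, which encode iron regulatory proteins 1 and 2. Both act on iron-responsive elements mainly through protein changes (ACO1 switches to an aconitase when it holds an iron-sulfur cluster, and IREB2 is degraded when iron is plentiful). Their messages moved little compared with TFRC, FTH1 and SLC40A1. In batch 1, ACO1 had 59.5, 60.4 and 65.5 CPM in labelled resistant 1, against 52.1, 53.9 and 53.7 CPM in vehicle (0.29 ± 0.06, adjusted p = 5.70e-05). K562 had 57.3, 57.9 and 59.8 CPM, against 48.1, 50.9 and 47.5 CPM in OCI-AML3 parental (0.26 ± 0.06, adjusted p = 5.69e-04).

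In batch 2, ACO1 had 55.9, 79.1 and 54.4 CPM in labelled resistant 2, 60.9, 70.3 and 69.1 CPM in labelled resistant 1 and 52.8, 66.4 and 57.5 CPM in vehicle. All groups overlapped, and ACO1 was higher in labelled resistant 1 than in the same-numbered vehicle library in all 3 pairs. The differences from vehicle were not called in labelled resistant 2 (0.10 ± 0.15, adjusted p = 0.544) or labelled resistant 1 (0.18 ± 0.15, adjusted p = 0.275). A fit with the replicate number as a block called neither. With total-count scaling the differences were 0.38 (adjusted p = 0.0249) and 0.37 (adjusted p = 0.0294). Without library 2 of labelled resistant 2 its difference was -0.09 (adjusted p = 0.493).

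IREB2 had 220, 197 and 217 CPM in labelled resistant 1 of batch 1, against 240, 235 and 227 CPM in vehicle. The difference was -0.07 ± 0.07 (adjusted p = 0.306), and -0.11 in a fit of those 2 groups alone (adjusted p = 0.0253). In batch 2 it had 181, 245 and 187 CPM in labelled resistant 2, 201, 250 and 242 CPM in labelled resistant 1 and 287, 327 and 318 CPM in vehicle. It fell by 0.60 ± 0.13 in labelled resistant 2 (adjusted p = 7.82e-04) and by 0.43 ± 0.13 in labelled resistant 1 (adjusted p = 0.00914). In labelled resistant 1 it was not called with total-count scaling (-0.24, adjusted p = 0.104) or without its library 1 (-0.33, adjusted p = 0.0523). In K562 it had 231, 249 and 238 CPM, against 208, 244 and 191 CPM in OCI-AML3 parental, which overlapped. That difference was called (0.16 ± 0.07, adjusted p = 0.0437), but 4 of the 6 fits that left out 1 library lost the call, with values from 0.08 to 0.25, as did DESeq2's size factors in edgeR (0.15, adjusted p = 0.0661) and its Wald test (0.15, adjusted p = 0.0691).

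Labelled resistant 1 of batch 1 was also set directly against K562 of the same batch. Of the 9 iron genes tested, 1 was higher (SLC25A37) and 4 were lower (TFRC, FTH1, SLC11A2 and IREB2), against a background of 31.3% higher and 28.5% lower among 13006 genes. Of the calls over all genes, 52.3% were higher with TMM scaling and 62.8% with total-count scaling. Apart from SLC25A37 the log2 differences lay between -0.23 and 0.10. FTH1 differed by -0.14 ± 0.04 (adjusted p = 0.00441), and IREB2 by -0.16 ± 0.05 (adjusted p = 0.00534), and neither was called with total-count scaling (-0.07 and -0.10). That scaling instead called ACO1 (0.16, adjusted p = 0.0176), STEAP3 (0.14, adjusted p = 0.0433) and SLC40A1 higher, which made 4 iron genes higher and 2 lower.

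The vehicle libraries can be set against OCI-AML3 parental with no labelled resistant library involved. SLC25A37 (0.49 ± 0.05, adjusted p = 5.65e-08), FTH1 (0.34 ± 0.05, adjusted p = 1.54e-06) and SLC11A2 (0.27 ± 0.07, adjusted p = 0.00428) were higher in vehicle, and TFRC, STEAP3 and FTL (-0.29 ± 0.04, adjusted p = 5.44e-06) were lower. SLC40A1, with a difference of 0.03 ± 0.23, HMOX1, with 0.12 ± 0.25, ACO1, with 0.10 ± 0.06, and IREB2, with 0.10 ± 0.07, were not called, though IREB2 was without parental library 2 (0.20, adjusted p = 0.00382). Of these calls, TFRC showed the largest difference, in the opposite direction to labelled resistant 1 against vehicle.

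The second resistant group was set against the first within batch 2. By the fit of group means, 2 of 9 iron genes were called: SLC11A2 fell by 0.67 ± 0.14 (adjusted p = 0.00344) and STEAP3 was higher by 0.38 ± 0.12 (adjusted p = 0.0300). The background was 12.4% higher and 11.9% lower. Of the calls over all genes, 51.0% were higher with TMM scaling and 65.1% with total-count scaling. Libraries with the same number deviated together in these groups, and with the replicate number as a block 5 genes were called. The block added TFRC (-0.61, adjusted p = 0.00700), FTL (-0.26, adjusted p = 0.0343) and FTH1 (-0.26, adjusted p = 0.0457), each lower in labelled resistant 2, to SLC11A2 (-0.67, adjusted p = 9.13e-04) and STEAP3 (0.39, adjusted p = 0.0227). Without the block these 3 were not called (TFRC -0.57 ± 0.33, FTL -0.25 ± 0.13 and FTH1 -0.26 ± 0.12). Leaving out library 2 of labelled resistant 2, its highest for TFRC, gave -1.03 for TFRC (adjusted p = 0.00965). Without that library IREB2 was also called (-0.33, adjusted p = 0.0456), as was FTH1 without library 2 of labelled resistant 1 (-0.36, adjusted p = 0.0291). The STEAP3 call was lost in 4 of the 9 fits that left out 1 library.

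For labelled resistant 1, the fold change against vehicle was compared between the batches with an interaction term, given as batch 1 minus batch 2. The titles use the same sample numbers in both batches and do not say whether the same samples were sequenced again. The fit took all libraries as independent. It was called for 6 of the 10 iron genes, against a background of 33.2% of 15209 genes called in either direction. The difference was positive for SLC40A1 (1.67 ± 0.24, adjusted p = 4.53e-05), SLC25A37 (1.55 ± 0.11, adjusted p = 3.83e-08), STEAP3 (0.99 ± 0.13, adjusted p = 1.55e-05) and IREB2 (0.37 ± 0.12, adjusted p = 0.0236). It was negative for FTH1 (-0.85 ± 0.12, adjusted p = 5.83e-05) and SLC11A2 (-0.37 ± 0.14, adjusted p = 0.0448). TFRC differed by 0.47 ± 0.27 and FTL by -0.08 ± 0.13, neither called (adjusted p = 0.219 and 0.708), though TFRC was called without vehicle library 1 of batch 2 (0.65, adjusted p = 0.0480). The SLC11A2 call was lost in 9 and the IREB2 call in 3 of the 12 fits that left out 1 library. SLC11A2 was also not called without the low-count filter (-0.35, adjusted p = 0.0679), nor IREB2 with total-count scaling (0.21, adjusted p = 0.185) or DESeq2's size factors in edgeR (0.31, adjusted p = 0.0561). Of the calls over all genes, 54.9% were positive with TMM scaling and 34.4% with total-count scaling, which lowered the median of all genes by 0.16. FTH1 and SLC40A1 kept the direction of their change against vehicle in both batches, whereas STEAP3 was higher in batch 1 and lower in batch 2. The red cell marker sums also differed between the batches, as given above, but they are levels scaled within each batch and not fold changes. The interaction term was called for 0 of the 12 red cell markers, several of which were at 0 in vehicle. Their part in the differences of the iron genes was not tested.

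Beyond the 10 genes, a list of 38 other genes of iron and heme handling was examined, of which 37 had a row in the tables. Of the 30 tested in all 3 comparisons with vehicle, 11 were higher in each and 5 lower in each, against the 31% and 29.8% of all genes given above. By role, in batch 1, 5 of 9 tested genes of uptake and reduction were higher and 1 lower in labelled resistant 1, against the 44% higher and 42.1% lower of all genes in that comparison. Of 9 genes of mitochondrial iron and iron-sulfur clusters, 6 were higher and 1 lower, and of 7 genes of heme transport and breakdown, 4 were higher and 2 lower. Of 3 genes of storage, chaperones and ferritin turnover, 1 was higher and 2 lower.

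Batch 2 gave other counts, against 40.2% higher and 35.9% lower of all genes in labelled resistant 2 and 39.9% and 35.8% in labelled resistant 1. Of the 9 genes of uptake and reduction, 4 were higher and 4 lower in labelled resistant 2, and 4 higher and 3 lower in labelled resistant 1. Of the 3 genes of storage, chaperones and ferritin turnover, none was higher in either group, and 3 were lower in labelled resistant 2 and 1 in labelled resistant 1. The 9 mitochondrial genes gave 5 higher and 2 lower in labelled resistant 2, and 5 higher and 3 lower in labelled resistant 1. The 7 genes of heme transport and breakdown gave 4 higher and 1 lower in labelled resistant 2, and 4 higher and 3 lower in labelled resistant 1. In K562 against parental, 15 of 29 listed genes tested were higher and 8 lower, against 42.6% higher and 42.5% lower of all genes.

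By rule, 4 of these genes were named as higher in every comparison with vehicle. HEPH, hephaestin, a ferroxidase that works with ferroportin in gut cells, had 126, 118 and 122 CPM in labelled resistant 1, against 0.168, 0.147 and 0.341 CPM in vehicle of batch 1 (9.22 ± 0.14, adjusted p = 5.28e-28). In K562 it had 150, 144 and 141 CPM, against 0.476, 0.261 and 0.136 CPM in OCI-AML3 parental (8.89 ± 0.13, adjusted p = 8.44e-23). In batch 2 the log2 fold change against vehicle was 9.38 in labelled resistant 2 and 9.68 in labelled resistant 1. HEPH was near 0 in every vehicle and parental library, with at most 10 counts.

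BLVRB, biliverdin reductase B, had 209, 221 and 208 CPM in labelled resistant 1, against 12.4, 13.3 and 15.2 CPM in vehicle of batch 1 (4.05 ± 0.07, adjusted p = 1.87e-26). SLC48A1, a heme transporter of endosomes and lysosomes, had 43.1, 43.9 and 44.8 CPM, against 5.82, 6.67 and 6.15 CPM (2.89 ± 0.09, adjusted p = 1.57e-21). TFR2, the second transferrin receptor, which senses iron-loaded transferrin, had 79.6, 85.0 and 81.1 CPM, against 14.4, 15.0 and 14.5 CPM (2.56 ± 0.07, adjusted p = 5.52e-23). In batch 2 the log2 fold changes in labelled resistant 2 and resistant 1 were 4.05 and 4.56 for BLVRB, 2.64 and 3.00 for SLC48A1 and 1.97 and 2.61 for TFR2. In K562 against parental they were 3.39, 3.90 and 2.35.

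By the same rule 3 genes were named as lower in every comparison with vehicle. FBXL5, the iron-sensing part of the ubiquitin ligase that marks IREB2 protein for degradation, had 29.4, 24.2 and 29.8 CPM in labelled resistant 1, against 76.5, 79.1 and 76.1 CPM in vehicle of batch 1, and fell by 1.40 ± 0.07 on the log2 scale (adjusted p = 4.13e-16). In batch 2 it fell by 2.04 ± 0.15 in labelled resistant 2 and by 1.53 ± 0.14 in labelled resistant 1, and in K562 by 0.92 ± 0.08 relative to parental. FBXL5 was lower in every labelled resistant and K562 library than in any vehicle or parental library of its batch.

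SLC39A14, a transporter of iron not bound to transferrin, had 110, 97.3 and 113 CPM in labelled resistant 1, against 212, 207 and 207 CPM in vehicle of batch 1 (-0.90 ± 0.06, adjusted p = 5.01e-14). NCOA4, the receptor that delivers ferritin to autophagy, had 487, 442 and 458 CPM, against 784, 757 and 795 CPM (-0.68 ± 0.05, adjusted p = 9.04e-13). In batch 2, SLC39A14 fell by 0.99 in labelled resistant 2 and by 1.40 in labelled resistant 1, and NCOA4 by 0.96 and 0.68. In K562 against parental, both differences had the same direction and were smaller (SLC39A14 -0.20 ± 0.06, NCOA4 -0.34 ± 0.06), and HMOX2, the constitutive heme oxygenase (-1.07 ± 0.06), and CYBRD1, a ferric reductase (-0.76 ± 0.09), were also lower.

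**Figure D5:**
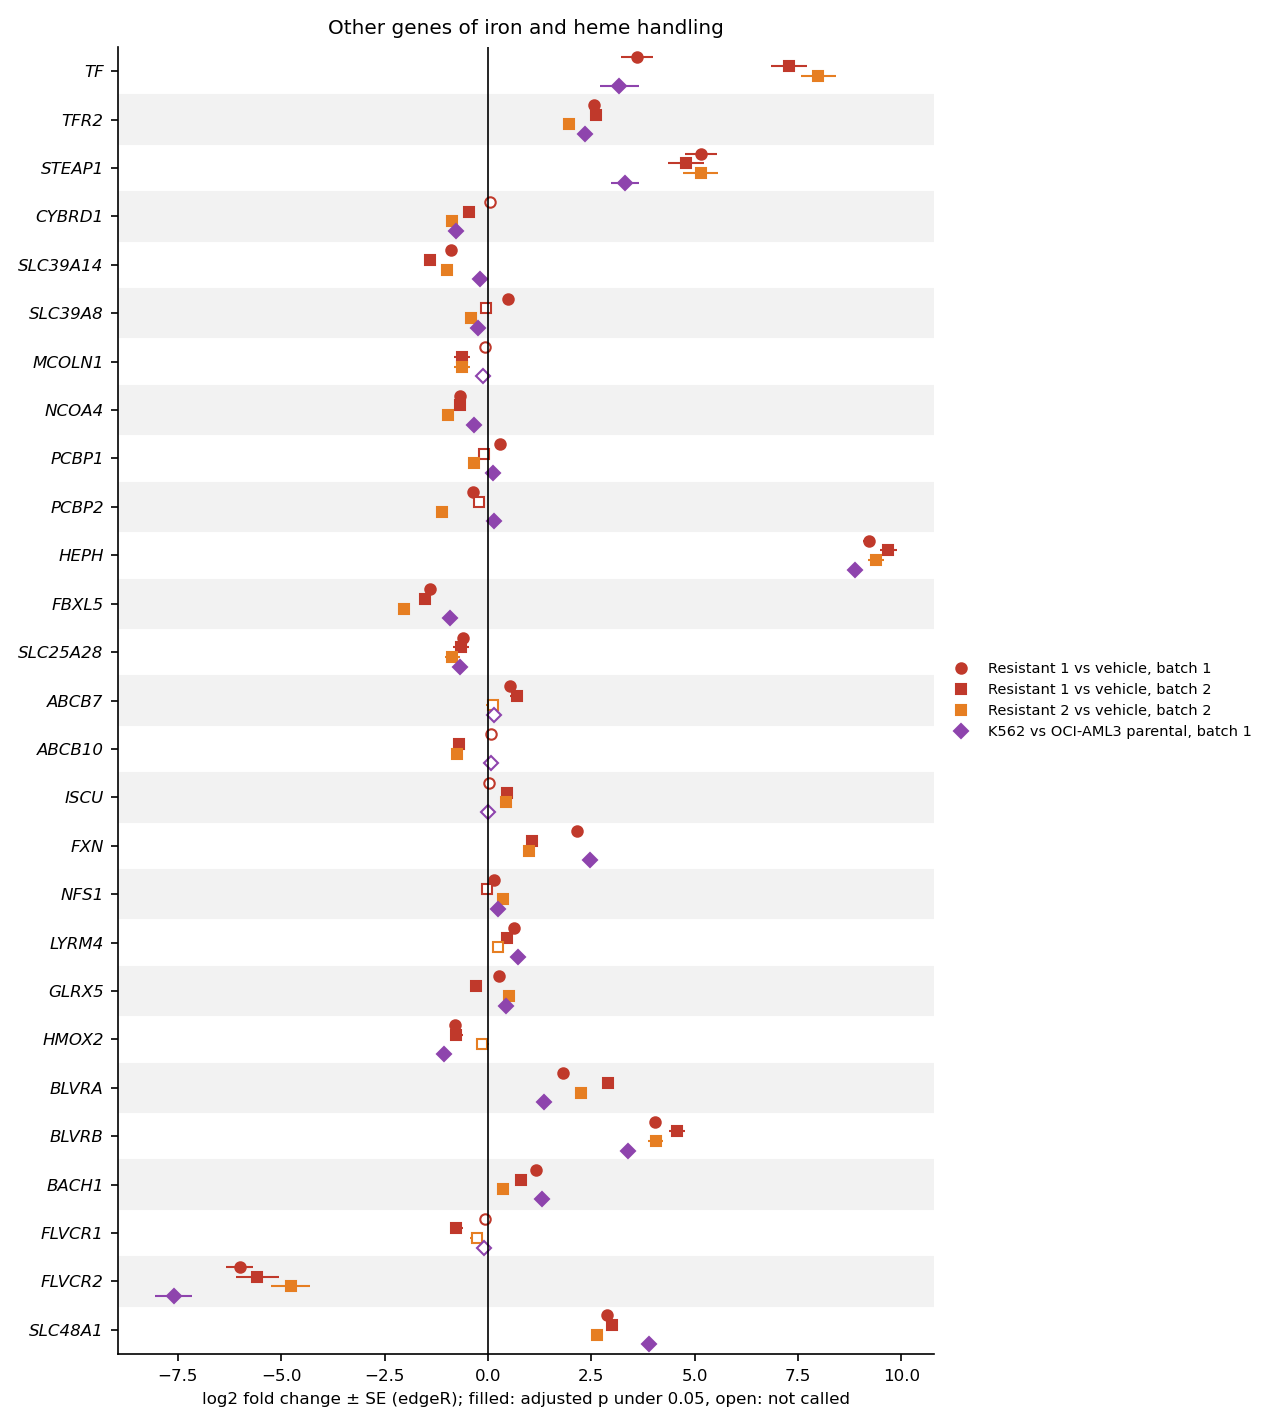
Log2 fold changes with SE of other genes of iron and heme handling tested in all 4 comparisons shown (filled, adjusted p under 0.05 in edgeR's quasi-likelihood test; open, not called). HEPH lies farthest to the right, at 8.89 to 9.68, and FBXL5 and NCOA4 lie left of 0 in all 4.

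As a description of likeness, genes with the highest Pearson correlations of log2(CPM + 1) with 3 of the iron genes over the 21 libraries were listed. CPM here was relative to the library total without TMM scaling. For TFRC they were GMNN, UBE2E3 and RANBP1 (r = 0.972, 0.971 and 0.971), for FTH1 KAT2B and SNX25 (0.993 and 0.991), and for SLC40A1 PICALM, CHPT1 and NUDT12 (0.996, 0.996 and 0.995). The libraries share batches and fall into the 2 kinds of profile described above. Any gene that differs strongly between those kinds, in the same direction as these iron genes, therefore has a high value here.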

How the data were processed

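RNA was counted in 21 libraries of OCI-AML3 and K562 cells. The authors deposited raw read counts per gene symbol, 1 table per batch, with no normalization. Per the labels' protocols, libraries were made with a strand-specific mRNA kit and sequenced as read pairs. The VIPER pipeline, hg38 and DESeq2 1.22.1 are named per the submitters' processing notes, and the sources used here give no aligner version, annotation or strand setting. No column was left without a sample. From the deposited counts, edgeR 4.0.16 (R 4.3.3) was run with TMM scaling, filterByExpr, robust quasi-likelihood fits, two-sided F tests and Benjamini-Hochberg adjustment over all genes tested, with calls under 0.05. One fit held resistant 1, vehicle and OCI-AML3 parental of batch 1, and another all groups of batch 2. Comparisons with K562 used 6 libraries, and the batch interaction used 12. The code was tested on simulated data. The iron genes, gene lists, markers and tests were chosen with earlier results of these data known. Other iron genes were named when called in 1 direction in every comparison with vehicle (or in K562), averaging at least 10 CPM in the higher group, up to 4 per direction (3 for K562), by size of change. The genes most like TFRC, FTH1 and SLC40A1 were the 3 with the highest correlation. Some genes that these rules or lists take in are not reported here.

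Positions, transcripts and sequences came from GENCODE v44 and hg38, matched by symbol for all 10 genes and for 24575 of 28008 in the tables. Libraries of 1 group differed beyond sampling noise in all 21 pairs (chi-square per degree of freedom 1.81 to 84.5), so none was counted as a duplicate. Same-numbered libraries deviated together, with every pair above 0.1, in labelled resistant 1 and vehicle of batch 2 (r = 0.153, 0.140 and 0.107) and in labelled resistant 2 and resistant 1 (0.155, 0.301 and 0.102). Numbers were therefore taken as pairs when single libraries were set side by side there, and not in the other comparisons. Same-numbered libraries of labelled resistant 2 and vehicle gave 0.038, 0.123 and 0.061, so the numbers did not link the groups of batch 2 alike. The titles do not say that a number marks a shared culture, and the side-by-side values are a description only. The main fits used group means without pairs in every comparison, and the replicate block was an alternative. Among libraries with different numbers, library 3 of labelled resistant 2 and library 1 of resistant 1 also deviated together (0.205). The title of 1 vehicle library of batch 2 gives another number, run together with the next word. Its library name ends in 1, and the number was read as 1. Alternatives were DESeq2 (1.42.0) size factors and Wald test, no low-count filter, the replicate block, other groups in the fit, leaving out each library, and total-count scaling, which was added after seeing the data.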

Additional observations from a re-analysis of the deposited data

Results flagged for a closer look

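The fold change of labelled resistant 1 against vehicle differed between batch 1 and batch 2, by the interaction term, for 6 of the iron genes. Given as batch 1 minus batch 2 on the log2 scale, the difference was -0.85 for FTH1 (ferritin heavy chain), 1.67 for SLC40A1 (ferroportin) and 1.55 for SLC25A37 (mitoferrin-1). It was 0.99 for STEAP3, which was called higher in batch 1 and lower in batch 2. For SLC11A2 the difference was -0.37 and for IREB2 it was 0.37. The SLC11A2 call was lost in 9 of the 12 fits that left out 1 library, and the IREB2 call in 3 of them. SLC11A2 was also not called without the low-count filter (-0.35, adjusted p = 0.0679 by edgeR), nor IREB2 with total-count scaling (0.21, adjusted p = 0.185) or DESeq2's size factors (0.31, adjusted p = 0.0561).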

How the results depend on the processing

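Of 1103 values of the 10 genes under alternatives, 1031 kept their direction and their side of the threshold, and none that was called reversed. In labelled resistant 2 against resistant 1, 2 iron genes were called in the fit of group means, 5 with the replicate block, 1 with those groups alone and 1 to 4 without single libraries, while 2323 to 4814 genes were called over all genes without single libraries. Values not called in the main fits reversed in these cases. SLC40A1 in that comparison gave -0.0119 with the replicate block, -0.0096 with those groups alone and -0.171 to 0.126 without single libraries. ACO1 there gave 0.0114 with total-count scaling and -0.275 to 0.0178 without single libraries. Total-count scaling also gave 0.158 for STEAP3 in labelled resistant 2 against vehicle and -0.0306 for ACO1 in the batch interaction. Without single libraries, labelled resistant 2 against vehicle gave -0.0937 to 0.206 for ACO1 and -0.0369 to 0.125 for SLC25A37, vehicle against parental -0.157 to 0.274 for SLC40A1, K562 against parental -0.0234 to 0.0704 for STEAP3, labelled resistant 1 against K562 -0.0412 to 0.0548 for FTL, and the batch interaction -0.133 to 0.0294 for FTL. The replicate block added TFRC to the batch interaction (0.48, adjusted p = 5.52e-04), where batch 1 numbers did not pair libraries, and changed no other call outside labelled resistant 2 against resistant 1. HMOX1 entered the interaction's calls without library 1 of labelled resistant 1 in batch 1 (-6.44) or library 3 in batch 2 (-3.64). The causes were not tested. The 19 vehicle counts of HMOX1 in batch 2 limit what depth can show there.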

Other observations

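A second list held 10 genes whose messages are reported to carry iron-responsive elements, 5 of them iron genes already described (TFRC, FTH1, FTL, SLC40A1 and SLC11A2). It was chosen with earlier results of these data known. Of the 10, 9 were called higher in all 3 comparisons of labelled resistant with vehicle libraries, against 31% of all genes tested in all 3. In K562 against OCI-AML3 parental 9 were higher and 1 lower, against 42.6% higher and 42.5% lower of all genes. CDC14A, a phosphatase, was higher by 2.11 ± 0.10 (SE) on the log2 scale in labelled resistant 1 of batch 1, by 2.05 ± 0.11 in labelled resistant 2 and 2.06 ± 0.11 in labelled resistant 1 of batch 2, and by 2.63 ± 0.11 in K562. CDC42BPA, a kinase, was higher by 1.16, 0.81, 0.87 and 0.95 in the same 4 comparisons.

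EPAS1, which encodes the hypoxia-inducible factor HIF-2 alpha, was the exception. It fell by 1.78 ± 0.07 in labelled resistant 1 of batch 1 and by 3.12 ± 0.07 in K562, and was higher than vehicle by 2.16 ± 0.46 in labelled resistant 2 and 1.40 ± 0.46 in labelled resistant 1 of batch 2. All were called by edgeR's quasi-likelihood test. EPAS1 levels in batch 2 were spread widely, at 40.6 to 121 CPM in labelled resistant 2, 30.5 to 68.6 CPM in labelled resistant 1 and 12.9 to 28.1 CPM in vehicle. Vehicle averaged 52.2 CPM in batch 1 and 19.1 CPM in batch 2, each batch on its own scale. The direction in batch 2 was opposite to that of K562 against parental, unlike in batch 1. As for the other results, a response and a difference between cell lines cannot be told apart.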
